A study of Mus musculus with 12 samples.

Results

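The last interval of a pigmentation cycle in culture was examined here: B16 cells harvested on Day 20, 8 days after replating, against B16 cells harvested on Day 16, 4 days after the same replating. B16 is an established mouse melanoma line that can make melanin. The members were 2 arrays labelled Day 20 and 2 arrays labelled Day 16, 4 of the 12 arrays of the series, with 1 array of set 1 and 1 of set 2 on each of 6 days (0, 4, 8, 12, 16 and 20). The cells carried no genetic change or drug in the labels, and all were grown in DMEM with fetal calf serum. Per the labels' protocols, a culture was started at 100 cells per cm2, and on day 12 its cells were plated again at 10000 cells per cm2 for the last harvests. Day 20 and Day 16 both carried the label depigmented, so the comparison asks what 4 more days of dense culture changed once cells were already counted as depigmented.

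A separate growth label of each array went against that protocol: it read 10000 cells per cm2 on both Day 20 arrays and 100 cells per cm2 on both Day 16 arrays. Time after replating and this density label cannot be told apart within the 4 arrays. A fit with the label as a term is used below as an alternative. Within a day the label differed only on Day 0 and Day 12, with 1 array at 10000 and 1 at 100. The term therefore rests on those arrays alone and cannot separate density from time between Day 20 and Day 16. The sets were described as consecutive cycles, and no other label speaks of separate cultures, so each p-value reflects the spread between 2 arrays of a day and no more, and that spread may be technical. No source used here gives slide or scan. The 2 arrays of a day correlated at 0.9956 on Day 20 and 0.9961 on Day 16 across the genes tested. Probes detected at p under 0.05 numbered 19780 and 18863 on the Day 20 arrays and 19694 and 19181 on the Day 16 arrays. Mean raw signal was 270 and 273 intensity units on Day 20, against 323 and 331 on Day 16. Quantile normalization then gave every array the same distribution, so each change below is relative to the other genes of an array.

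Melanocytes and melanoma cells make melanin in melanosomes, under the transcription factor MITF, and melanin synthesis, growth and stress responses share regulators in these cells. Dividing cells express genes for DNA replication in S phase and for mitosis in G2 and M phase, under E2F factors and under complexes that contain MYBL2 or FOXM1. Cells short of amino acids or burdened with unfolded protein in the endoplasmic reticulum (ER) translate ATF4, which induces genes of amino acid uptake, amino acid synthesis and tRNA charging, together with the stress factor gene Ddit3.

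Day 20 differed from Day 16 across most of the genes tested. Genes of mitosis and DNA replication were far lower on Day 20 and pigment genes fell further. Genes of the amino acid and unfolded protein responses, immediate early genes, the 3 Gadd45 genes and several clock genes were higher. Of 11470 genes, 7453 (65.0%) passed an adjusted p of 0.05, 3434 higher (29.9%) and 4019 lower (35.0%). The test was limma's moderated test with Benjamini-Hochberg adjustment over all genes, which gives the adjusted p of each gene below. For a gene's other probes and for unnamed probes, the same test was fitted to and adjusted over the 22978 detected probes. At least 2-fold changes numbered 2618 (22.8%), 1116 higher (9.73%) and 1502 lower (13.1%). The 2 groups of arrays did not overlap for 9209 genes (80.3%). Against so wide a background, a list in which most members passed is not by itself unusual, and the counts of each list in 1 direction are to be read against 29.9% and 35.0%. The median gene changed by -0.05 on the log2 scale. The standard deviation of the log2 difference over genes was 0.955 between Day 20 and Day 16, compared with 0.216 between both Day 20 arrays and 0.199 between both Day 16 arrays. In what follows, a level is a normalized log2 intensity of a gene's brightest probe, a change is Day 20 minus Day 16 in log2 units with its standard error (SE), and n is 2 arrays per day.

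Promoters of 8 genes from the lists for mitosis, DNA replication, the amino acid response and the ER are shown first, because motifs of known cell cycle and stress regulators lie in them. They were taken from the largest changes past the threshold in each list. Genes without the motif in these bases, without a single RefSeq window, or on a chromosome left out of the choice, were passed over. Every example therefore holds a motif by selection. Each is the 250 bases before the start of the gene, 5′ to 3′ on the gene's strand, from RefSeq on build GRCm38.p6, with the matched motif in capitals on either strand. Top2a (chr11:99024190-99024439 on the minus strand) and Kif11 (chr19:37376132-37376381 on the plus strand), which encode a topoisomerase and a motor protein of mitosis, stand for G2 and M phase and show the CHR element TTTGAA and the CCAAT box. Mcm5 (chr8:75109259-75109508 on the plus strand), a subunit of the replicative helicase, and Cdc6 (chr11:98907901-98908150 on the plus strand), a helicase loader, stand for DNA replication and show E2F motifs.
Top2a: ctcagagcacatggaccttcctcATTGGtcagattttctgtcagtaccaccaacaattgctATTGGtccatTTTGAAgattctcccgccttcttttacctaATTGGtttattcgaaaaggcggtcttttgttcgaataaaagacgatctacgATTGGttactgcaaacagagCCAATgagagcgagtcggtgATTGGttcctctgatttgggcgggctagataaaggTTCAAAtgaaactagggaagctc
Kif11: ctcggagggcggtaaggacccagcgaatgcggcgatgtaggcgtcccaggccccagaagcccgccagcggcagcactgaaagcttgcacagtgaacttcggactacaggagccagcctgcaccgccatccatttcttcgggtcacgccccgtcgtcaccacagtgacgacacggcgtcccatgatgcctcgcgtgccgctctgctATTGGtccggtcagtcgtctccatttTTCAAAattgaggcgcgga
Mcm5: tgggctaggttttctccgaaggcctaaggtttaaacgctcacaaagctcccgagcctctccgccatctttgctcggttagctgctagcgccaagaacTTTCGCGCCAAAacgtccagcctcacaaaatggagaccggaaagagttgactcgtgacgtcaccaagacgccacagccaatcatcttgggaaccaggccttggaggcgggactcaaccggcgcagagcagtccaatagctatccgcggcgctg
Cdc6: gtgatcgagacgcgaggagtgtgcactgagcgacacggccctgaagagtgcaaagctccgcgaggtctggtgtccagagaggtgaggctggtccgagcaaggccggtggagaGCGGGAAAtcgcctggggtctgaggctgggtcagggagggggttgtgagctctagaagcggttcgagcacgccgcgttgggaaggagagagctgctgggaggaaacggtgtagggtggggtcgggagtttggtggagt
Fgf21 (chr7:45615491-45615740 on the minus strand), Atf3 (chr1:191183334-191183583 on the minus strand) and Chac1 (chr2:119350992-119351241 on the plus strand) stand for the amino acid response and show the composite ATF4 motif TGATGNAA. Hspa5 (chr2:34771840-34772089 on the plus strand), which encodes the main ER chaperone BiP, shows the ER stress element, a CCAAT box and CCACG with 9 bases between them.
Fgf21: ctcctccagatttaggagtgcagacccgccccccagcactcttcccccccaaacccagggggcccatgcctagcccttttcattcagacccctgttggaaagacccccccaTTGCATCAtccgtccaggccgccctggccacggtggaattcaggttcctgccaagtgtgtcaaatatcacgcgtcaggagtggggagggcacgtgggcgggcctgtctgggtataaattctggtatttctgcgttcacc
Atf3: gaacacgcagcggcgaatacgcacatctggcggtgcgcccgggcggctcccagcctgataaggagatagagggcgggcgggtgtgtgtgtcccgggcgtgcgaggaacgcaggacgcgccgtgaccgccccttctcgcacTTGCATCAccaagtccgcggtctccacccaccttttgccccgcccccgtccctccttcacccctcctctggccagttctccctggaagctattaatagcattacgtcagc
Chac1: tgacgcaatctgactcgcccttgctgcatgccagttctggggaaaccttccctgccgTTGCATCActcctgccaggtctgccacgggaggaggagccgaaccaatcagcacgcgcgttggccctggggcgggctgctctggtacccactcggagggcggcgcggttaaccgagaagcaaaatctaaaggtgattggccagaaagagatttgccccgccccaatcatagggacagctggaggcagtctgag
Hspa5: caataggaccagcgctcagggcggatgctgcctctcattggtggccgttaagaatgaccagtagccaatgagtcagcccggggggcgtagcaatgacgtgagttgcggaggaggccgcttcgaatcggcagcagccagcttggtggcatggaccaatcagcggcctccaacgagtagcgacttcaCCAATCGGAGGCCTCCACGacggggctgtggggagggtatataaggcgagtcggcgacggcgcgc
The first 4 genes fell and the other 4 rose. Kif11 changed by -4.07, and values of the others are given below.

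Across the lists, the motifs were counted in windows of 300 bases (250 before and 50 after the start) of genes with 1 such window. TTTGAA was in 25 of 33 windows of the G2 and M phase list (75.8%), against 888 of 7407 windows of all genes tested (12.0%), and in 4 of 28 windows of the DNA replication list (14.3%). An E2F motif (TTTCGCGC, TTTGGCGC or TTTCCCGC) was in 9 of 28 windows of the replication list (32.1%) and 1 of 33 of the G2 and M phase list (3.03%), compared with 3.77% of all windows. CCAAT, which is also part of the ER stress element, was above the share of all windows (39.4%) in each of these lists. It was in 75.8% of the G2 and M phase windows, 60.7% of the replication windows, 54.2% of the ATF4 list windows and 77.8% of the ER list windows. TGATGNAA was in 8 of 24 windows of the ATF4 list (33.3%) and in 2.3% of all windows. The ER stress element was in 8 of 27 windows of the ER list (29.6%) and in 14 of 7407 (0.189%) overall. Windows of all genes that fell held TTTGAA in 12.8% of cases and windows of all genes that rose in 10.6%, close to the share of all windows. In the same order, the shares were 5.85% and 2.76% for E2F, 41.3% and 37.8% for CCAAT, and 1.65% and 2.93% for TGATGNAA. The ER stress element was in 0 of 2545 windows of genes that fell and 10 of 2250 of genes that rose. Differences between these shares were not tested. These matches describe letters in the windows, and no binding was measured.

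**Figure D1:**
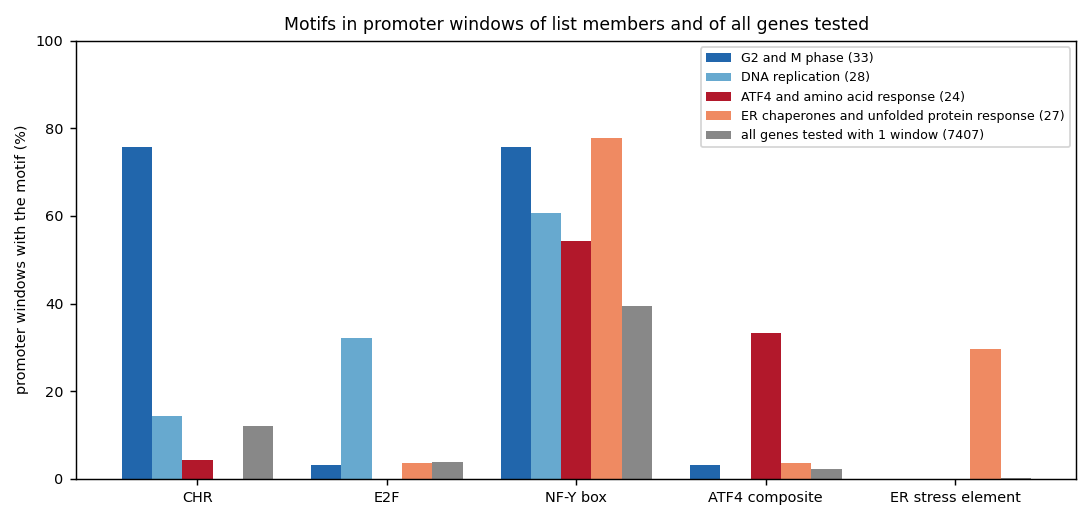
Share of promoter windows (300 bases) that hold each motif on either strand, in percent, for 4 gene lists and for all genes tested (grey), with the number of windows of each in the legend; the NF-Y box is CCAAT. The G2 and M phase list stands out for CHR (75.8% against 12.0%), the replication list for E2F (32.1% against 3.77%), and the stress lists for the ATF4 composite (33.3% against 2.3%) and the ER stress element (29.6% against 0.189%).

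Genes of mitosis fell almost as a block. Among the 45 genes measured for G2 and M phase, 44 were lower and 1 was higher, with a median change of -2.47 (-2.29 with undetected genes at their bound), where 35.0% of all genes fell with a median over all genes of -0.05. By at least 2-fold, 39 of the 45 were lower. Birc5, which encodes the chromosomal passenger protein survivin, had levels of 5.47 and 5.58 on Day 20, against 10.70 and 10.74 on Day 16. Both Day 20 arrays lay about 5 log2 units below both Day 16 arrays, and the change of -5.20 ± 0.09 (SE; adjusted p = 9.39e-21) was the largest fall of any gene. Foxm1, a transcription factor of mitotic genes, had levels of 4.83 and 4.70 on Day 20 and 9.58 and 9.59 on Day 16 (change -4.82 ± 0.09, adjusted p = 1.53e-20). Plk1, the Polo kinase of mitotic entry, had 5.35 and 5.17 on Day 20, against 9.65 and 9.77 on Day 16 (-4.45 ± 0.12). These groups did not overlap, as held for 80.3% of all genes. The Day 20 levels approached those of undetected probes, where changes are compressed. Aurkb, the kinase of the passenger complex, fell by 4.47 on the log2 scale and Pbk, a mitotic kinase, by 5.15. Top2a, shown above with its promoter, had 6.32 and 6.51 on Day 20 and 10.68 and 10.52 on Day 16 (-4.18 ± 0.09). Another Top2a probe, detected on 3 of 12 arrays, gave -0.29 (adjusted p = 0.214). Mybl2, a factor of the same gene programme, was detected on neither Day 20 array and was at least 5.73-fold lower. Another of its probes gave -0.44 (adjusted p = 0.0546). Cdk1, the mitotic cyclin-dependent kinase, kept a clear signal on Day 20 (9.40 and 9.29, against 11.53 and 11.51 on Day 16; -2.18 ± 0.08), and another probe of Cdk1 detected on 5 arrays gave 0.45 (adjusted p = 0.0435). The only member that rose was Pttg1, the gene of securin (6.81 and 6.65 on Day 20, 5.34 and 5.43 on Day 16; 1.34 ± 0.21), named after its value was seen. By role within the list, all 21 measured spindle, kinetochore and cytokinesis genes fell (median -3.14), as did all 11 cyclins and kinases (-2.47). All 6 regulators (-1.86) and 6 of 7 phosphatase and anaphase genes (-2.09) fell too. The list did not include every such gene: the kinetochore gene Spc24, outside it, gave 3.83 by its brightest probe and -1.75 by another. In bulk RNA, fewer cells in mitosis and less RNA per cell cannot be told apart.

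**Figure D2:**
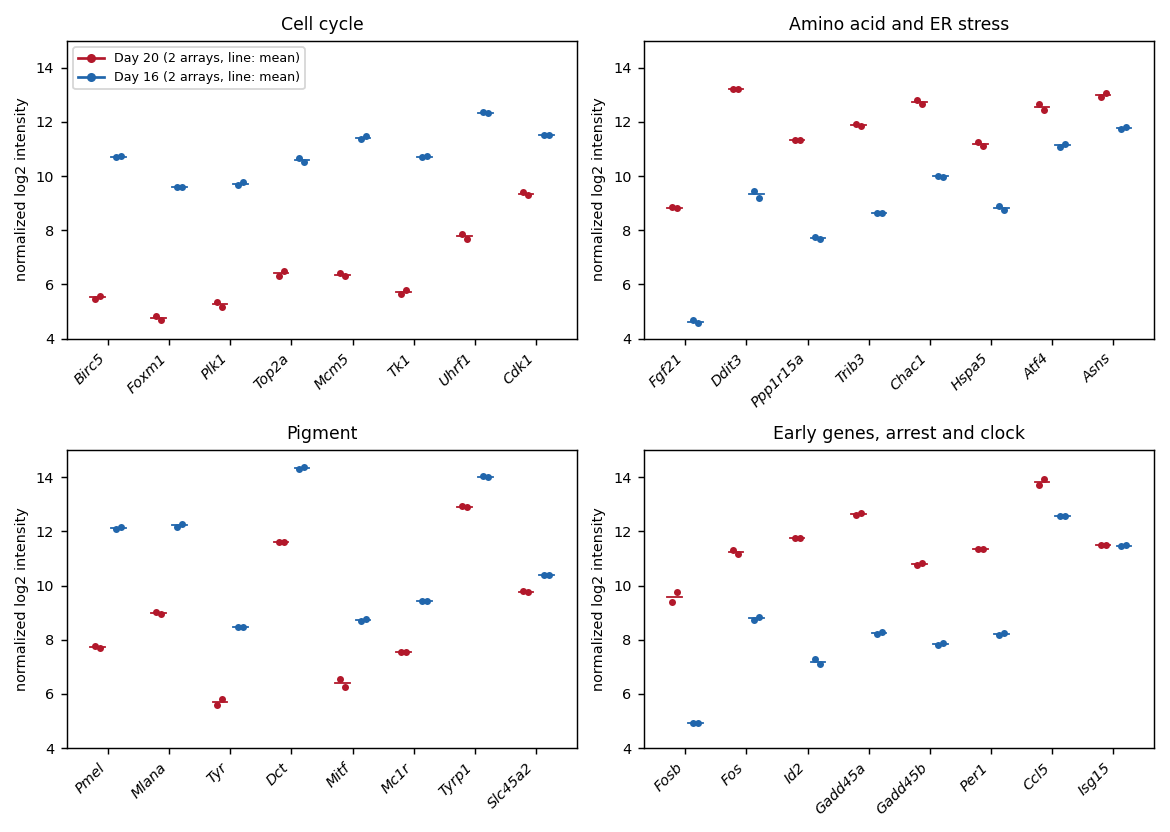
Normalized log2 intensity of 32 genes in 4 groups on the 2 Day 20 arrays (red, left of each pair) and the 2 Day 16 arrays (blue, right), with a line at each mean. The cell cycle and pigment genes sit lower on Day 20 on both arrays, the stress and early genes sit higher, and Isg15 (11.48 and 11.51 on Day 20, 11.45 and 11.48 on Day 16) is level.

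For DNA replication, 39 of 40 members were lower and 0 higher (median change -2.42), and 34 were at least 2-fold lower. Dctpp1, a nucleotide pool enzyme (-0.08 ± 0.09, adjusted p = 0.462), was the member that did not pass, named after its value was seen. All 18 licensing and helicase genes fell (median -2.34), as did all 16 polymerase and clamp genes (-2.23). Mcm5 had levels of 6.42 and 6.30 on Day 20, against 11.36 and 11.47 on Day 16 (-5.05 ± 0.08, adjusted p = 2.09e-21). Mcm2, a subunit of the same helicase, fell much less, with 9.87 and 9.75 on Day 20 and 10.98 and 10.91 on Day 16 (-1.14 ± 0.08). Both subunits were lower on both Day 20 arrays, where 80.3% of all genes did not overlap between the days. Cdc6 was detected on neither Day 20 array and was at least 16.3-fold lower, while other Cdc6 probes, detected on 3 and 4 arrays, gave 0.14 and -0.34 and did not pass. Tk1, thymidine kinase of S phase, had 5.63 and 5.79 on Day 20 and 10.69 and 10.74 on Day 16 (-5.01 ± 0.10). Fen1, the flap nuclease, changed by -4.17 ± 0.10 and Lig1, the replicative ligase, by -4.13 ± 0.14. Pcna, the sliding clamp, fell by 0.85 (8.23 and 8.26 on Day 20, 9.04 and 9.15 on Day 16). Rrm2, a ribonucleotide reductase subunit, changed by -3.55 ± 0.11 by its brightest probe, whereas another probe detected on all 12 arrays rose by 0.71 ± 0.20 (adjusted p = 0.00375), and 1 detected on 11 arrays fell by 4.07 (adjusted p = 4.47e-18), so its direction depended on the probe. For Tyms, thymidylate synthase, the brightest probe gave -3.34 ± 0.08 and other probes, detected on 2 to 5 arrays, gave -0.07 to -0.39 without passing, while a probe detected on 11 arrays gave -2.87 (adjusted p = 3.68e-14).

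Control genes of G1 moved less and in both directions. Of 31 measured E2F and G1 genes 19 fell and 5 rose (median -0.45). Uhrf1, an E2F target that maintains DNA methylation, fell the most, with 7.86 and 7.69 on Day 20 and 12.37 and 12.31 on Day 16 (-4.56 ± 0.08). E2f2 fell by 3.99 and E2f1 by 1.19 on the log2 scale, and both encode activating E2F factors. Cdk2, a kinase of S phase entry, fell by 1.91, the cyclin gene Ccne2 by 1.55 and the cyclin gene Ccnd1 by 0.94. Rbl1, the pocket protein p107, changed by -1.71 ± 0.10, but other probes of it gave -0.20 and -0.06 and did not pass. Of 14 measured inhibitors 3 rose and 7 fell (median -0.33). Ccng2 had the largest fall among them (-1.95 ± 0.10). Cdkn1a (p21) rose by 0.68 ± 0.07, with 12.06 and 12.07 on Day 20 against 11.31 and 11.45 on Day 16. Cdkn1b (p27) changed by -0.45 ± 0.14 (adjusted p = 0.00782), and its call was lost without set 1 of Day 16 (-0.30, adjusted p = 0.135), without set 2 of Day 20 (-0.39, adjusted p = 0.0566) and with the density label as a term (-0.23, adjusted p = 0.339). The other 4 members of the whole list that rose were named after their values were seen. They were Btg1 (0.99 ± 0.08), an antiproliferative gene, the factor gene E2f5 (0.84 ± 0.09), the ubiquitin ligase gene Skp2 (0.66 ± 0.16) and the cyclin gene Ccnd2 (0.64 ± 0.07). Myc, a growth factor-responsive transcription factor, did not pass (5.84 and 5.43 on Day 20, 5.98 and 5.76 on Day 16; -0.23 ± 0.17, adjusted p = 0.235).

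Chromatin and repair genes that accompany division were lower as well. Of 23 histone and chromatin genes 21 fell and 1 rose (median -1.92, or -1.55 with bounds). Ncaph, a condensin subunit, changed by -4.63 ± 0.10, Hmgn2, a nucleosome-binding protein gene, by -3.71 ± 0.08, and Lmnb1 (lamin B1) by -2.96 ± 0.08. All 16 non-histone chromatin members fell (median -2.09), and of 7 measured histone genes 5 fell (median -0.64). H2ax, the histone variant of the DNA damage response, was the member that rose (10.55 and 10.56 on Day 20, 8.93 and 8.95 on Day 16; 1.62 ± 0.09), named after its value was seen. Histone genes have near-identical copies, so the gene behind a probe is uncertain. Among 19 DNA repair and checkpoint genes 17 fell and 2 rose (median -1.77). Rad54l, a recombination gene, changed by -3.89 ± 0.11 and Clspn, the checkpoint adaptor claspin, by -3.37 ± 0.10. Fancd2, a crosslink repair gene, was detected on neither Day 20 array and was at least 10.9-fold lower, as was its partner Fanci at least 7.15-fold. The 2 that rose, named after their values were seen, were Fanca (0.86 ± 0.13) and the checkpoint kinase gene Atr, which was not detected on Day 16 and was at least 1.08-fold higher.

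**Figure D3:**
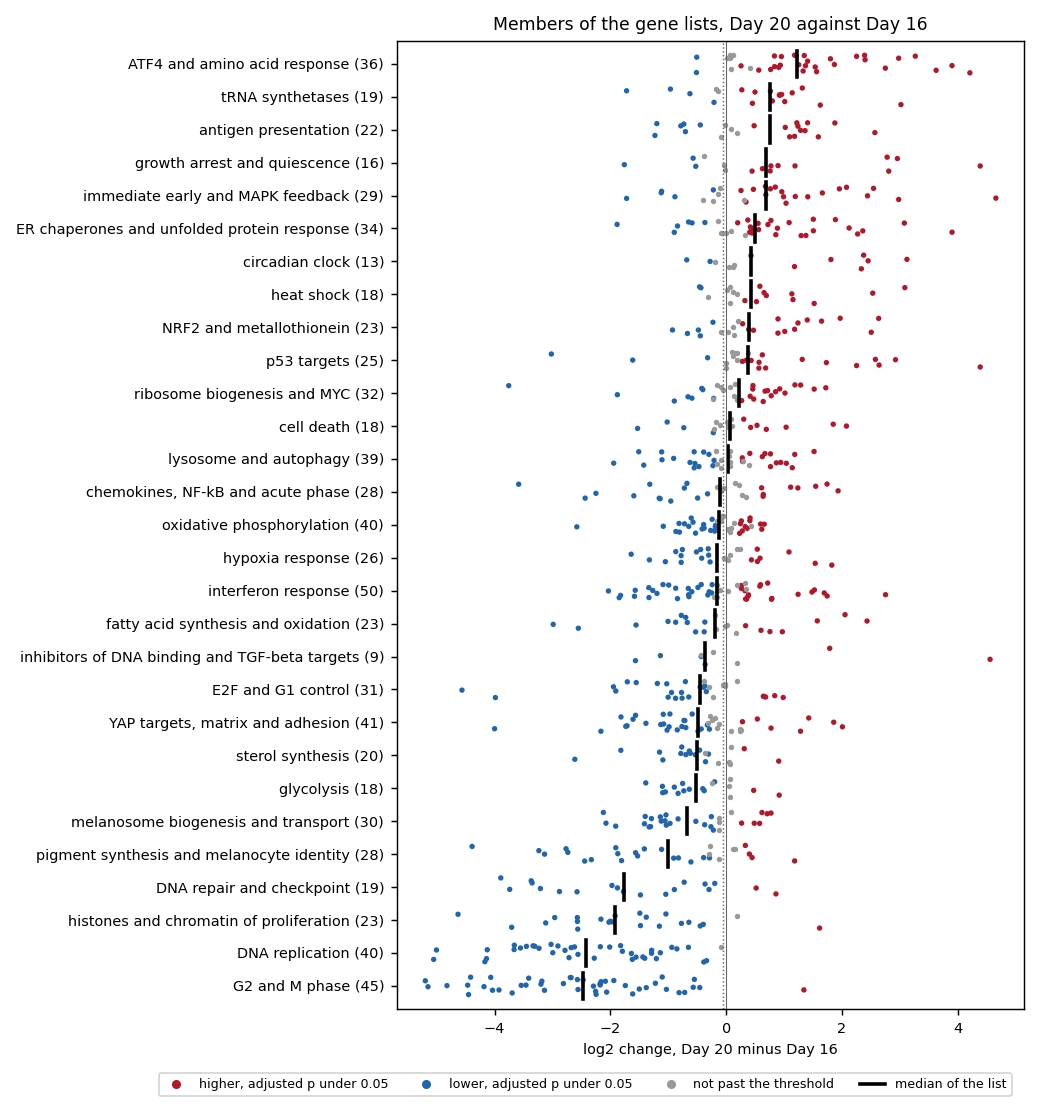
Log2 change, Day 20 minus Day 16, of each measured member of 29 gene lists (number measured in parentheses), coloured where it passed an adjusted p of 0.05, with a black bar at each list's median and a dotted line at the median of all genes. The cell division lists lie at the bottom (medians -2.47 and -2.42 for G2 and M phase and replication) and the ATF4 list at the top (1.23), while most other lists hold members on both sides of 0.

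Genes of the amino acid response rose. Of 36 measured members of the ATF4 list 28 rose and 2 fell (median 1.23), and 20 rose by at least 2-fold, where 29.9% of all genes rose and 9.73% did so by at least 2-fold. Fgf21, a stress-induced hormone, had levels of 8.86 and 8.81 on Day 20 and was detected on neither Day 16 array (4.67 and 4.58), which made it at least 16.0-fold higher. Ddit3, the stress factor CHOP, had 13.23 and 13.22 on Day 20, against 9.44 and 9.21 on Day 16 (3.90 ± 0.10, adjusted p = 1.80e-18). Ppp1r15a (GADD34), which restores translation by dephosphorylating eIF2α, had 11.33 and 11.34 on Day 20, against 7.74 and 7.67 on Day 16 (3.63 ± 0.11). In each of these the groups were far apart and the arrays of a day close together. Trib3, a pseudokinase that feeds back on ATF4, had 11.94 and 11.87 on Day 20 and 8.64 and 8.62 on Day 16 (3.27 ± 0.08). Atf3 rose by 2.98 ± 0.14 and Chac1, which degrades glutathione, by 2.75 ± 0.07. Atf4 itself, a bright probe, rose by 1.41 ± 0.08 (12.65 and 12.43 on Day 20, 11.09 and 11.18 on Day 16). Asns, asparagine synthetase, rose by 1.21 ± 0.07. Psat1, of serine synthesis, rose by 0.26 ± 0.07, and its call was lost without set 1 of Day 20 (0.19, adjusted p = 0.0748).

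By role, 13 of 17 transcription factor and feedback genes rose (median 1.41), 8 of 11 synthesis genes (0.84) and 7 of 8 transporters (1.34). Among the transporters, named after their values were seen, were Slc38a2, the SNAT2 carrier (2.40 ± 0.08), Slc1a4 (1.80 ± 0.10), and the cystine carrier gene Slc7a11 (1.18 ± 0.12). The 2 members that fell were Ddit4, an inhibitor of mTORC1 (-0.51 ± 0.08), and Shmt2, a mitochondrial one-carbon enzyme (-0.51 ± 0.13). Of 19 tRNA synthetase genes 13 rose and 4 fell (median 0.77). Cars rose by 3.02 ± 0.10, although another Cars probe, detected on 3 arrays, gave -0.01 and did not pass. Yars was not detected on Day 16 and was at least 2.59-fold higher, Nars rose by 1.32 ± 0.08 and Rars by 1.14 ± 0.08. Qars (-1.72 ± 0.09), which charges glutamine tRNA, went the other way, as did Mars1 (-0.96 ± 0.10), Vars (-0.63 ± 0.09) and Lars (-0.21 ± 0.08), the last 3 named after their values were seen.

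Genes of the unfolded protein response rose in part. Of 34 members 23 rose and 6 fell (median 0.50). Sensors and factors rose in 10 of 12 cases (median 1.44), and chaperones and folding enzymes in 13 of 22 with 5 lower (median 0.39). Hspa5 had levels of 11.26 and 11.11 on Day 20, against 8.88 and 8.76 on Day 16 (2.36 ± 0.13, adjusted p = 6.73e-13). Dnajb9, an Hspa5 cochaperone, rose by 2.27 ± 0.08, Xbp1, a factor of the IRE1 branch, by 0.89 ± 0.07, and Hyou1, an ER chaperone, by 0.72 ± 0.14. Probes disagreed for some members of this list. Atf6, a membrane-bound sensor, gave 3.08 ± 0.18 by its brightest probe and -0.04 by another, detected on 6 arrays. Sel1l, of ER-associated degradation, gave 2.13 ± 0.09 and, by another probe detected on all 12 arrays, 0.07 (adjusted p = 0.716), with 1 detected on 9 arrays at 2.71.

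Of 18 heat shock genes, 10 were higher and 2 lower (median 0.43). Hspa1b, an inducible HSP70 with the near-identical copy Hspa1a, had 8.00 and 7.84 on Day 20, against 5.37 and 5.40 on Day 16 (2.53 ± 0.19). Bag3, an HSP70 cochaperone, rose by 1.16 ± 0.08 and Hspe1, the mitochondrial HSP10, by 1.14 ± 0.08. Hspa4l changed by 3.09 ± 0.17, but another probe detected on all 12 arrays gave 0.24 (adjusted p = 0.200).

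Pigment genes fell between these harvests, although both carried the label depigmented. Of 28 measured pigment and melanocyte identity genes 19 fell and 4 rose (median -1.01), and 14 were at least 2-fold lower. Pmel, the fibril protein of melanosomes, had 7.77 and 7.68 on Day 20, against 12.08 and 12.15 on Day 16 (-4.39 ± 0.07, adjusted p = 5.62e-21). Tyr, which encodes tyrosinase, the first enzyme on the way to melanin, had 5.58 and 5.81 on Day 20, against 8.46 and 8.47 on Day 16 (-2.77 ± 0.11). Dct, a melanin enzyme, had 11.61 and 11.60 on Day 20 and 14.31 and 14.37 on Day 16 (-2.73 ± 0.08). Every one of these values was lower on both Day 20 arrays, where 80.3% of all genes did not overlap between the days. Mlana, a melanosomal membrane protein gene, changed by -3.24 ± 0.08 and Gpr143, a melanosomal receptor gene, by -3.14 ± 0.11, with Gpr143 detected on 1 of 2 Day 20 arrays. Tyrp1, the third enzyme of the family, fell by 1.11 at a very bright probe (12.93 and 12.89 on Day 20, 14.05 and 14.00 on Day 16) and changed by -2.60 and -2.50 at other probes detected on all 12 arrays. Slc45a2, a melanosomal transporter gene, changed by -0.61 at its brightest probe and by -0.64, -2.56 and -2.25 at others detected on all 12 arrays. Mc1r, the receptor for melanocyte-stimulating hormone, fell by 1.87.

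Of the factors, Mitf had 6.55 and 6.26 on Day 20, against 8.70 and 8.77 on Day 16 (-2.33 ± 0.12), while another Mitf probe, detected on 3 arrays, gave 0.05 (adjusted p = 0.813). Sox10, which activates Mitf, fell by 0.91 and remained bright (11.32 and 11.43 on Day 20, 12.29 and 12.28 on Day 16). The 4 members that rose, named after their values were seen, were the cystine carrier gene Slc7a11 (1.18 ± 0.12), the factor genes Pax3 (0.45 ± 0.15) and Tfe3 (0.33 ± 0.13), and the copper transporter gene Atp7a (0.40 ± 0.09). Of 30 melanosome biogenesis and transport genes, 20 were lower and 6 higher (median -0.68; -0.50 counting bounds). Transport genes fell in 8 of 10 cases, among them Rab27a (-1.14 ± 0.07), which tethers melanosomes to the motor complex. Rab38, which delivers melanin enzymes, fell by 1.91 (10.97 and 10.87 on Day 20, 12.89 and 12.77 on Day 16). Mlph, the melanophilin adaptor gene, was detected on neither Day 20 array and was at least 3.43-fold lower, and another of its probes, detected on 4 arrays, did not pass (adjusted p = 0.999).

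All 8 melanocyte markers that were checked (Mitf, Sox10, Tyr, Tyrp1, Dct, Pmel, Mlana and Slc45a2) were detected on all 12 arrays, and all 8 were lower on Day 20. Their summed raw signal above the array median was 14800 and 14700 on Day 20, against 85600 and 90900 on Day 16. Leukocyte markers on the array numbered 12, of which 5 passed the filter, and Ptprc, Cd3e, Cd8a, Itgam, Nkg7 and Gzmb were detected on 0 of the 4 arrays. Their summed signal was 16100 and 15800 on Day 20, against 4390 and 4770 on Day 16. Prf1, the perforin gene of cytotoxic lymphocytes, was the leukocyte marker that rose (14.39 and 14.40 on Day 20, 12.25 and 12.38 on Day 16; 2.08 ± 0.09), and it alone carried the sum: the other 11 markers together lay below the array median on all 4 arrays (-140 and -169 on Day 20, -56.9 and -118 on Day 16). Fcer1g (-1.02 ± 0.16, adjusted p = 1.26e-05) and Lyz2 (-0.50 ± 0.17, adjusted p = 0.0109) were lower and detected on neither Day 20 array, and Laptm5 (-0.35) and Aif1 (0.20) did not pass. Fibroblast markers were measured for 3 of 8 genes and all 3 fell, including Pdgfra (-0.87 ± 0.16), whose other probe, detected on 3 arrays, did not pass. Their summed signal lay below or near the array median on all 4 arrays (-72.7 and -61.5 on Day 20, 15.3 and -12.4 on Day 16). Keratinocyte and endothelial markers had 1 measured gene each, neither past the threshold, with summed signals below the median on all 4 arrays. What part such cells have in the results was not tested.

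Immediate early genes, which growth factors and stress switch on quickly, were higher on Day 20. The list also held feedback genes of MAPK signalling, and of its 29 measured members 19 rose and 5 fell (median 0.69). Of the 19 immediate early factors 12 rose and 3 fell (median 0.69), and of the 10 feedback genes 7 rose and 2 fell (median 0.72). Fosb, an AP-1 subunit, had the largest rise of any gene, with 9.39 and 9.77 on Day 20, against 4.91 and 4.92 on Day 16 (4.66 ± 0.13, adjusted p = 9.21e-18). Fos had 11.30 and 11.17 on Day 20, against 8.74 and 8.84 on Day 16 (2.44 ± 0.09), and Egr1 had 11.14 and 11.17, against 8.62 and 8.60 (2.55 ± 0.08). Day 20 and Day 16 arrays did not overlap for any of these 3 genes, as held for 80.3% of all genes. Klf4, a factor gene detected on 1 of 2 Day 16 arrays, rose by 2.08 ± 0.17, and another of its probes did not pass. Dusp6, a phosphatase that restrains ERK and reads out its activity, went the other way (10.14 and 10.16 on Day 20, 11.06 and 11.01 on Day 16; -0.88 ± 0.07). Others that fell, named after their values were seen, were Spred1, an inhibitor of RAS signalling (-1.72 ± 0.10), Ier3 (-1.11 ± 0.08), Klf6 (-0.22 ± 0.07) and Klf2, which was not detected on Day 20 and was at least 1.79-fold lower.

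Inhibitors of DNA binding, which block basic helix-loop-helix factors, rose for 2 of 3 measured Id genes. Id2 had 11.76 and 11.74 on Day 20, against 7.29 and 7.10 on Day 16 by its brightest probe (4.56 ± 0.08, adjusted p = 1.53e-20). Other Id2 probes, detected on all 12 arrays, did not pass (adjusted p = 0.984 and 0.324), so the rise rested on 1 of 3 probes. Id1, detected on 1 of 2 Day 16 arrays, rose by 1.79 ± 0.14, and Id3 did not pass (-0.23 ± 0.16, adjusted p = 0.234). Of 6 SMAD-responsive or TGF-beta genes 4 fell and 0 rose, among them Tgfb1 (-1.57 ± 0.12) and Tgfb2 (-1.14 ± 0.18), which encode the ligands.

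All 3 Gadd45 genes, which couple stress signals to growth arrest, rose (median 2.96). Gadd45a had 12.62 and 12.67 on Day 20, against 8.21 and 8.30 on Day 16 (4.39 ± 0.12, adjusted p = 6.76e-18). Gadd45b rose by 2.96 ± 0.12 and Gadd45g by 2.81 ± 0.08. Of 13 FOXO and quiescence genes 7 rose and 3 fell. Irs2, the insulin receptor substrate and a FOXO target, had 9.41 and 9.36 on Day 20, against 6.59 and 6.61 on Day 16 (2.78 ± 0.12). Txnip, a restraint on glucose uptake, rose by 0.77 ± 0.07, and Cited2, a transcriptional coregulator gene, fell by 1.76. Among 25 measured p53 targets 14 rose and 3 fell (median 0.39). Plk2, a stress kinase gene, rose by 2.93 ± 0.10, Plk3 by 2.58 ± 0.14, and the death receptor gene Fas by 2.64 ± 0.15. Mdm2, the p53 ubiquitin ligase, rose by 0.57 ± 0.08, with another probe at 0.29 (adjusted p = 0.264). Gtse1, a G2 phase protein gene that restrains p53, fell by 3.02.

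Of 13 clock genes, 7 were higher and 2 lower (median 0.43). Per1, a clock repressor that cyclic AMP and glucocorticoids can induce, had 11.33 and 11.34 on Day 20, against 8.18 and 8.25 on Day 16 (3.12 ± 0.09, adjusted p = 3.25e-17). Per2 rose by 2.38 ± 0.16, Nr1d1 (REV-ERBα) by 2.45 ± 0.19 and Ciart by 2.34 ± 0.18. Cry2, another repressor, rose by 1.81 ± 0.15, and a probe of it detected on 3 arrays did not pass. Dbp, an output gene, fell by 0.68, and Bhlhe40, a feedback repressor, by 0.28, both named after their values were seen. No source used here gives the hour of harvest.

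Of 20 oxidative stress genes under NRF2, 13 were higher and 3 lower (median 0.68). Nfe2l2, the gene of NRF2 itself, had 11.31 and 11.42 on Day 20, against 8.81 and 8.90 on Day 16 (2.51 ± 0.09). Nqo1, a quinone reductase, rose by 2.64 ± 0.12, with another probe at 0.32 that did not pass, Srxn1 by 1.97 ± 0.10, Gclc by 1.65 ± 0.15, Txnrd1 by 1.40 ± 0.17 and Hmox1 by 1.01 ± 0.12. Sqstm1, an autophagy adaptor and NRF2 target, changed by -0.23 ± 0.07 (adjusted p = 0.00518), and its call was lost without set 2 of Day 16 (-0.18, adjusted p = 0.0635) and with the density label as a term (-0.19, adjusted p = 0.0962). Mt1, a metallothionein, fell by 0.67. Gsta1 and Gsta2, glutathione transferase genes with near-identical copies, were among the 12 largest falls. Neither was a member of the list, so the counts above leave them out. Gsta1 had 5.20 and 5.13 on Day 20, against 9.80 and 10.11 on Day 16 (-4.79 ± 0.09), and Gsta2 fell by 4.57.

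Immune genes went both ways. Of 50 measured interferon response genes 18 rose and 23 fell (median -0.16). Isg15, a ubiquitin-like effector, did not pass (0.03 ± 0.10, adjusted p = 0.824; -0.002, adjusted p = 0.992, with the density label as a term). Ifit2 rose by 1.75 ± 0.11 and Irf7, the amplifier of interferon production, by 0.79 ± 0.12. Oas2, an RNA-sensing synthetase, fell by 2.03 (7.70 and 7.63 on Day 20, 9.71 and 9.68 on Day 16), and Eif2ak2, the RNA-activated kinase PKR, by 1.82. Ifngr2, a chain of the interferon-gamma receptor, changed by 2.75 ± 0.10, whereas another probe detected on all 12 arrays fell by 0.62 (adjusted p = 6.34e-04) and another, likewise detected, gave -0.35 (adjusted p = 0.144). Sensors of foreign RNA and DNA fell in 5 of 7 cases (median -1.09).

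Of 22 antigen presentation genes, 12 were higher and 6 lower (median 0.75; 0.72 counting bounds). Class II genes rose in 5 of 6 cases: H2-Aa, not detected on Day 16, was at least 4.79-fold higher (7.04 and 7.16 on Day 20, 4.41 and 4.65 on Day 16), H2-Eb1 at least 1.93-fold, and H2-DMa rose by 1.59 ± 0.11. Of 16 class I genes, 7 were higher and 6 lower (median 0.09). Those that rose included the heavy chains H2-K1 (11.44 and 11.58 on Day 20, 9.96 and 10.24 on Day 16; 1.41 ± 0.10) and H2-T10 (1.88 ± 0.13), which have near-identical relatives. Those that fell, named after their values were seen, included the immunoproteasome subunits Psmb10 (-1.23 ± 0.10) and Psmb9 (-0.78 ± 0.12), the proteasome activators Psme1 (-1.20 ± 0.08) and Psme2 (-0.73 ± 0.12), and the peptide transporter Tap1 (-0.45 ± 0.15). Of 28 chemokine, NF-kB and acute phase genes, 12 were lower and 8 higher (median -0.10). Cxcl2, a neutrophil chemokine, had 6.20 and 6.07 on Day 20, against 9.74 and 9.70 on Day 16 (-3.58 ± 0.14), and Cxcl1 fell by 2.25. Ccl5, a lymphocyte chemokine, had 13.70 and 13.93 on Day 20, against 12.57 and 12.58 on Day 16 (1.24 ± 0.09). Ccl7, not detected on Day 16, was at least 3.46-fold higher, and Slpi, a protease inhibitor, rose by 1.74 ± 0.09. Of 5 measured acute phase genes, 2 were higher and 2 lower. Cp, the gene of ceruloplasmin, had the largest fall of them (-2.44 ± 0.11). Saa3, an acute phase gene, did not pass (-0.09 ± 0.09, adjusted p = 0.395). Lcn2, a siderophore-binding protein gene, rose by 0.64 ± 0.13, and that call was lost with the density label as a term (0.30, adjusted p = 0.111).

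Of 41 YAP target, matrix, adhesion and cytoskeleton genes, 24 were lower and 7 higher (median -0.49). Vim, the intermediate filament protein vimentin, had 7.60 and 7.86 on Day 20, against 11.61 and 11.85 on Day 16 (-4.00 ± 0.10, adjusted p = 1.29e-18). Nes (nestin), a filament protein of progenitor cells, fell by 2.16 and the collagen gene Col5a1 by 1.82. Mmp2, a gelatinase, rose (8.39 and 8.27 on Day 20, 6.29 and 6.35 on Day 16; 2.01 ± 0.12). YAP targets were split, with 3 of 9 higher and 3 lower: Ccn1 rose by 1.86 ± 0.08, and Ccn2, counted here among TGF-beta genes, fell by 0.43.

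Metabolic lists moved by smaller amounts. Of 18 glycolysis genes, 12 were lower and 2 higher (median -0.52). Slc2a1, the GLUT1 carrier, fell by 1.05 (8.78 and 8.56 on Day 20, 9.76 and 9.68 on Day 16). Ldha changed by -0.90 ± 0.06 and the lactate exporter gene Slc16a3 by -1.39 ± 0.16 (another of its probes did not pass), while Eno2 rose by 0.92 ± 0.09. Pfkl, a phosphofructokinase, gave -1.10 ± 0.08 by its brightest probe and 0.34 (adjusted p = 0.183) by another detected on all 12 arrays. Of 20 sterol synthesis genes, 13 were lower and 2 higher (median -0.50). Fdps, farnesyl diphosphate synthase, gave -2.61 ± 0.07, but another probe detected on all 12 arrays gave -0.07 (adjusted p = 0.776), and Srebf2, the master factor of the pathway, gave -1.15 ± 0.10 by 1 probe and 0.43 (adjusted p = 0.00363) by another. Of 13 fatty acid synthesis genes, 9 were lower and 2 higher, led by Scd1, the stearoyl-CoA desaturase (7.17 and 7.12 on Day 20, 10.13 and 10.13 on Day 16; -2.99 ± 0.09) and Fads2 (-2.55 ± 0.14). Of 10 fatty acid oxidation genes, 5 were higher and 2 lower, with Hadha at 2.06 ± 0.14. Hypoxia response genes were divided (7 of 26 higher, 13 lower). Vegfa, the angiogenic growth factor gene, had 12.21 and 12.27 on Day 20, against 10.80 and 10.59 on Day 16 (1.54 ± 0.09), and Plod2, a collagen hydroxylase gene, fell by 1.33.

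Of 40 oxidative phosphorylation genes, 19 were lower and 11 higher (median -0.12). Cox5b, a cytochrome oxidase subunit, was set apart from the other members (11.26 and 11.28 on Day 20, 13.89 and 13.80 on Day 16; -2.58 ± 0.09). ATP synthase genes fell in 9 of 11 cases, though with a median of -0.27. Of 13 measured complex I members, 5 were higher and 2 lower (median 0.08). ND4L, a complex I gene of the mitochondrial genome that was not on this list, was detected on neither Day 20 array and was at least 19.7-fold lower. Of 32 ribosome biogenesis genes, 16 were higher and 8 lower (median 0.23), with Rrp12 at 1.72 ± 0.08 and Nop56 at 0.42 ± 0.09. Pes1, of the PeBoW complex of large subunit assembly, fell by 3.76 (5.29 and 5.13 on Day 20, 8.87 and 9.06 on Day 16), whereas its partner Bop1 rose by 1.29 ± 0.11. Lysosome and autophagy genes were balanced (13 of 39 higher, 15 lower, median 0.02), with the protease genes Ctsl at 1.52 ± 0.16 and Ctsa at -1.94 ± 0.12. Of 18 cell death genes, 7 were higher and 4 lower. Tnfrsf12a, the TWEAK receptor gene, rose by 1.85 ± 0.09 and Bcl2l11, the death promoter BIM, fell by 1.02, with other probes at -0.54 (adjusted p = 0.0081) and 0.06 (not past the threshold). Bcl2, which protects cells from death, gave -1.53 ± 0.15 by its brightest probe, and other probes detected on all 12 arrays gave -1.58 (adjusted p = 5.37e-10) and -1.40 (adjusted p = 7.17e-07). A further 3 probes, detected on 7 to 12 arrays, gave 0.11 to 0.42 and did not pass.

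Some of the largest rises belonged to no list. Hyal3, a hyaluronidase gene, had 8.98 and 9.08 on Day 20, was not detected on Day 16 (4.80 and 4.63) and was at least 18.2-fold higher. Arg2, the mitochondrial arginase, had 9.01 and 8.75 on Day 20, against 4.83 and 4.93 on Day 16 (4.01 ± 0.19). Atpaf2, an assembly factor of ATP synthase, had 11.82 and 11.76 on Day 20, against 7.78 and 7.64 on Day 16 by its brightest probe (4.08 ± 0.09), and another probe detected on all 12 arrays rose by 0.81 ± 0.12 (adjusted p = 3.05e-06). Both arrays of each day were close in these genes. Sh2d6, detected on 1 of 2 Day 16 arrays, rose by 3.94 ± 0.18, and Rem2, a small GTPase gene, by 3.66 ± 0.13. For Spc24, a kinetochore gene, the brightest probe gave 3.83 ± 0.12 and another probe, detected on 11 arrays, -1.75 ± 0.18 (adjusted p = 2.22e-08), so these probes moved in opposite directions. Terf2ip, the telomere protein RAP1, gave 3.80 ± 0.09 by its brightest probe, against 0.34 (adjusted p = 0.00919), 0.21 and 0.24 by other probes detected on all 12 arrays, of which the first alone passed. Of the falls outside the lists or on several, Pclaf, a PCNA-binding protein gene, fell by 5.01 (5.93 and 5.85 on Day 20, 10.87 and 10.93 on Day 16), Cdkn3, a cell cycle phosphatase gene, by 4.83, and Kif22, a chromosome motor gene, by 4.79. Over the 201 genes chosen for naming, 105 had another detected probe, and in 34 of these a probe differed in direction or call. Sizes also depended on the probe: 66 had another probe detected on all 12 arrays, and for 19 of them such a probe lay more than 1 log2 unit from the brightest, with a smaller change in 17. Among these, Lig1 gave -0.60, Clspn -1.04, Cited2 -0.72 and -0.90, Fads2 -0.81, Nes -0.79 and Top2a -2.69 by such probes, each past the threshold in the same direction as the brightest.

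Set among all 6 days, Day 20 lay at an extreme for many genes. It had the lowest of the 6 day means in 3873 genes (33.8%) and the highest in 3100 (27.0%). Of the genes called lower against Day 16, Day 20 was the lowest day for 3085 (76.8%), and of those called higher it was the highest for 2600 (75.7%). G2 and M phase genes had their lowest mean on Day 20 in 44 of 45 cases and replication genes in 36 of 40. Members' levels, each centred on its own mean over days, had medians of 0.30, 0.58, 0.48, 0.36, 0.46 and -2.01 on days 0, 4, 8, 12, 16 and 20 for G2 and M phase. Day 16 thus lay among the earlier days for these genes and Day 20 stood apart. The same medians for ATF4 genes were -0.28, 0.10, 0.07, -0.13, -0.42 and 0.81, with Day 20 the highest day for 23 of 36. For pigment genes they were -0.32, 1.08, 0.92, 0.03, -0.08 and -1.10, with Day 20 the lowest for 18 of 28. The list of immediate early and MAPK feedback genes behaved otherwise (1.23, -0.51, -0.57, -0.47, -0.37 and 0.30): Day 20 was higher than days 4 to 16 and below Day 0 in the median. Fosb, for example, averaged 11.33, 5.80, 5.96, 6.12, 4.92 and 9.58 on those days, and Day 20 was the highest day for 4 of 29 members. For NRF2 and metallothionein genes the medians were -0.30, 0.32, 0.29, 0.35, -0.36 and -0.13. Day 16 was thus the lowest day for that list in the median, and Day 20 stayed below days 4 to 12. Day 20 was the highest day for 6 of its 23 members. Id2 had day means of 11.65, 11.82, 11.80, 8.06, 7.19 and 11.75.

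**Figure D4:**
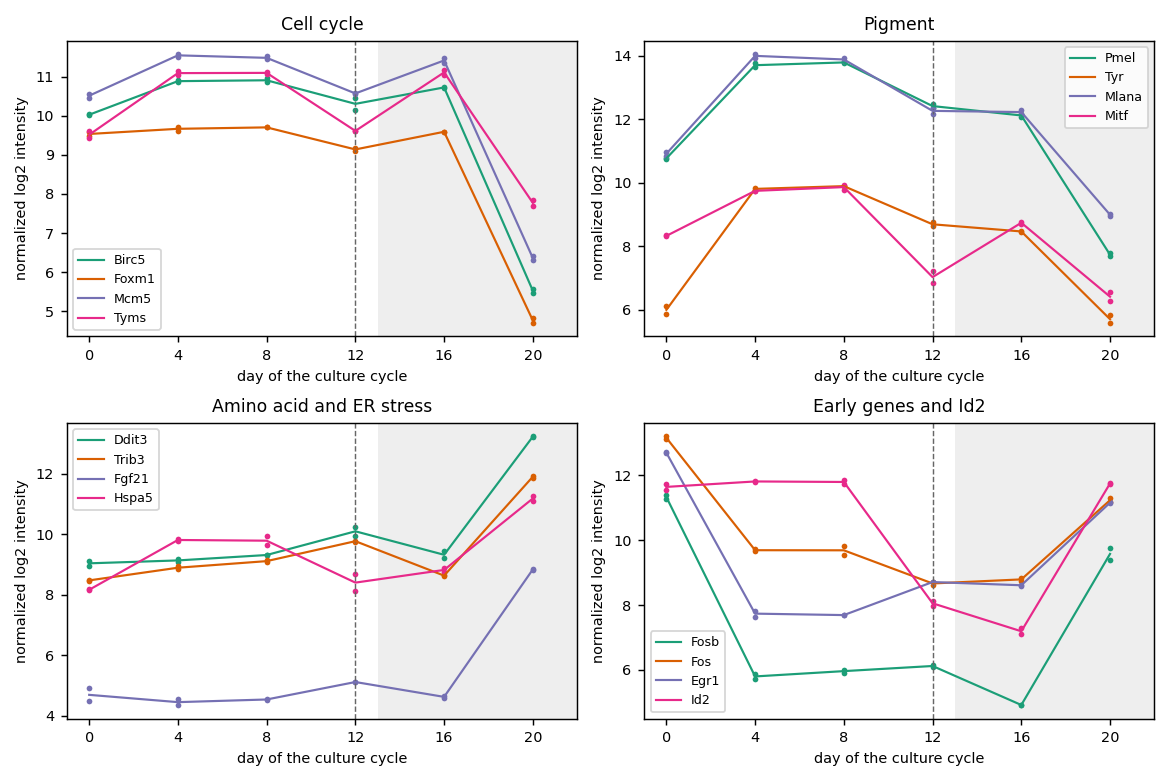
Normalized log2 intensity of 16 genes over the days of the cycle (points, 2 arrays per day, lines, means), with the replating on day 12 dashed and days 16 and 20 shaded. The cell cycle genes are lowest on Day 20, the pigment genes are already below their Day 8 level on Day 16 and lower again on Day 20, and the early genes are high on Day 0 and again on Day 20.

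A span of 4 days, between days 4 and 8 after plating, was also sampled after sparse seeding, on arrays that share none with Day 20 or Day 16. Day 8 against Day 4 gave 0 of 11470 genes (0%) past the threshold by limma (307 at an unadjusted p of 0.05), and the standard deviation of the difference over genes was 0.126 for the day means and 0.196 between the set 1 arrays of those days. A value of 0.196 is no larger than the 0.216 and 0.199 between arrays of 1 day given above. The labels give Day 8 and Day 4 as separate days, but by these values their arrays differed no more than arrays of 1 day, and whether they were separate harvests was not tested. The comparison that follows rests on their labels. Their density labels differed in the same way as those of Day 20 and Day 16. The difference between these differences, tested as an interaction in limma, passed for 6420 genes (56.0%), 2939 with a more positive change after replating (25.6%) and 3481 with a more negative one (30.3%). For 6329 of them the Day 20 against Day 16 change had itself passed in the same direction. Id2 differed by 4.58 ± 0.12 (SE) between the intervals (changes of 4.56 and -0.02), Fosb by 4.50 ± 0.18, Gadd45a by 4.41 ± 0.17, Hyal3 by 4.35 and Arg2 by 4.19. At the other end were Birc5 (-5.22 ± 0.13), Pbk (-5.17), Tk1 (-5.13), Pclaf (-5.11) and Mcm5 (-4.99). Among the lists, 41 of 45 G2 and M phase genes, 39 of 40 replication genes and 18 of 28 pigment genes differed towards a lower value after replating, and 28 of 36 ATF4 genes towards a higher one. The medians of Day 8 minus Day 4 for these lists lay between 0.0128 and 0.0273.

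**Figure D5:**
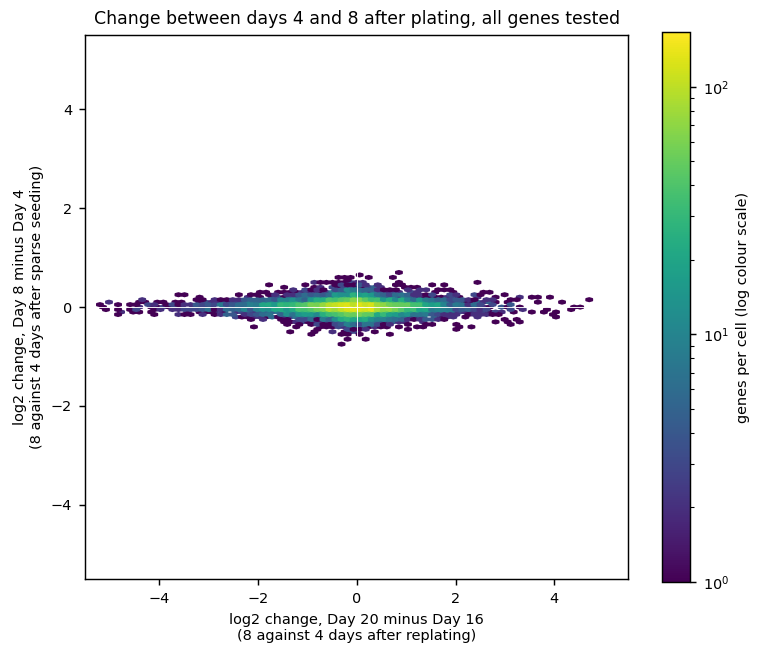
Log2 change of all 11470 genes, Day 20 minus Day 16 (horizontal axis) and Day 8 minus Day 4 (vertical axis), on equal scales, with colour for the number of genes per hexagon. The cloud is wide along the first axis (standard deviation 0.955) and narrow along the second (0.126).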

How the data were processed

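RNA of B16 cells was labelled and hybridised to Illumina mouse bead arrays. The deposited signal table gave, per the file headers, average intensity with its detection p-value, for 45281 probes on 12 arrays, with no background correction or normalization seen in the values. The authors' value table, also linear intensity, was an exact straight-line transform of the same columns, and the set numbers of 6 columns (Days 4, 12 and 20) were exchanged between the tables, so that only the day of those columns was certain. The sources used here name neither software nor array version.

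In R 4.3.3, neqc of limma 3.58.1 took the background from the detection p-values and applied quantile normalization (offset 16). A filter kept 22978 probes (detection p under 0.05, 2 arrays or more), of which 19120 had 1 gene symbol in the platform annotation. Of all probes 34885 had 1 symbol, 18 had several and 10378 had none. The probe with the highest mean over 12 arrays stood for each of 11470 genes. Day was a factor over all 12 arrays in lmFit and eBayes with an intensity trend, and calls used a Benjamini-Hochberg adjusted p of 0.05, two-sided. With 2 arrays against 2 an exact permutation test cannot reach that threshold. If all probes of a gene were undetected on both arrays of 1 day, the change is a bound: the mean of the detected day over, per array, the higher of the lowest detected value and the probe's own. On simulated data with 11470 genes, 95 of 100 genes changed by 1 log2 unit and 49 of 100 changed by 0.5 were recovered for Day 20 against Day 16. Only those genes were changed in the simulation, whereas 65.0% of genes passed in the data. The adjusted threshold is stricter where fewer genes change, so these shares do not carry over to the real comparison.

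The members and lists were chosen with earlier results of these data known. Named genes were the 12 largest rises and falls past the threshold with groups that did not overlap, up to 5 of the largest per list with members fixed for each list, the 5 largest interaction differences of each sign, and other probes of these genes that differed. Same-numbered sets of Day 20 and Day 16 deviated together with a correlation of 0.111 over genes, or -0.111 with the value table's set numbers, so the sets were fitted as a block only as an alternative. Other alternatives were the background correction, scaling, probe filter, probe choice, value table, density label and each array left out. Precision is limited by the number of arrays.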

Additional observations from a re-analysis of the deposited data

Results flagged for a closer look

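The change between Day 20 and Day 16 differed from the change between Day 8 and Day 4 in 6420 genes, by the interaction term of limma with Benjamini-Hochberg adjustment. The Day 8 and Day 4 arrays differed no more than arrays of 1 day, and whether they were separate harvests was not tested. The 5 genes with the most positive difference were Id2 (4.58 on the log2 scale), Fosb (4.50), Gadd45a (4.41), Hyal3 (4.35) and Arg2 (4.19), and both Day 20 arrays were above both Day 16 arrays in each. The 5 with the most negative difference were Birc5 (-5.22), Pbk (-5.17), Tk1 (-5.13), Pclaf (-5.11) and Mcm5 (-4.99), with both Day 20 arrays lower. Day 20 and Day 16 arrays did not overlap for 80.3% of all genes, so this separation does not set these genes apart. The rise of Id2 rested on 1 of 3 probes.

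Signal that the gene comparison did not use came from 3858 detected probes with no gene symbol. Of these, 2148 (55.7%) passed an adjusted p of 0.05 between Day 20 and Day 16, 1266 higher and 882 lower, a greater share of rises than among named genes; that difference in shares was not tested.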

How the results depend on the processing

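The count of genes past the threshold between Day 20 and Day 16 (7453) ranged over 6800 to 7510 with each array left out in turn, the count with at least 2-fold change (2618) over 2618 to 2695, and the interaction count (6420) over 5890 to 6519. Without background correction the 2-fold count was 1483, since that setting compresses the changes of dim probes; the other counts stayed within 1.5 times of the values given. With the set as a replicate block, 7632 genes passed by the signal table's sets and 7371 by the value table's, with 6623 and 6302 for the interaction, and no call of a named gene changed. Over 4788 refits of named genes, 4773 kept their direction and side of the threshold. Isg15, which had not passed, turned sign with the density label as a term (-0.00188, adjusted p = 0.992). Medians of the 33 lists, marker lists included, were less stable: of 789 refits, 187 moved by more than the spread between sets (by 0.006 to 0.83 log2 units, 12 of them by over 0.5; 131 under other settings and 56 with an array left out), 5 turned sign and 597 did neither. The greatest shift took the histone and chromatin list to -1.09 without background correction, against -1.92. The median of the lysosome list (0.0248) turned to -0.00325 with median centring, -0.0582 with the mean of probes, -0.0774 with the density term and -0.023 without set 1 of Day 16, with a range of -0.023 to 0.0248 over the arrays left out. That of the leukocyte markers became 2.08 with probes detected on all arrays, where fewer markers remained. Hspa4l did not pass with that filter (0.24, adjusted p = 0.176), nor Egln3 and Pdgfra with the mean of probes, Scd2 with the value table or without set 1 of Day 20, or Lyz2 with the value table or median centring. Genes near the floor of the arrays have understated changes. The cause of these shifts was otherwise not tested.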
